A study of Homo sapiens with 21 samples.

Results

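GO-203 treatment of BT-549 mammospheres was followed across every gene of 6 RNA-seq libraries, out of 21 in the series. BT-549 is an established triple-negative breast cancer (TNBC) cell line, labelled wild type, and here it was grown as 3D mammospheres, floating spheres kept in serum-free MammoCult medium on ultra-low attachment plates, at serial passage 6. In 3 libraries the mammospheres had been exposed to GO-203 at 0.75 umol/L, and 3 were labelled Control. The length of the exposure and the vehicle of the control are not given in the sources used here. The members are all genes of the table. For setting the inhibitor beside loss of its target, 6 more libraries were used, from passage 6 mammospheres of a BT-549 line carrying a doxycycline-inducible hairpin against MUC1 (tet-MUC1shRNA), with 3 given 0.1% DMSO and 3 given doxycycline (DOX) at 500 ng/ml. All 12 come from 1 cell line. The study's methods give cultures in triplicate as the source of RNA and the labels do not tie a library to a culture, so the p-values measure the spread between these libraries.

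MUC1 is a membrane mucin that is cut into an extracellular subunit and a transmembrane subunit, MUC1-C. The short cytoplasmic tail of MUC1-C holds a cysteine-glutamine-cysteine (CQC) motif through which it pairs with itself, enters the nucleus and meets transcription factors, and it also sits next to receptor tyrosine kinases that feed the ERK cascade. GO-203 is a cell-penetrating peptide that binds the CQC motif and blocks this pairing. It acts on the protein, so the MUC1 transcript need not fall under it. Mammosphere growth is used to enrich for cells with self-renewal, and cells in spheres meet less oxygen than cells in a monolayer, so hypoxia targets and glycolytic enzymes are usually well expressed there.

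For 3 of the gene groups that moved together with GO-203, 2 promoters each are printed. These groups have a well-known DNA element near their start sites. The promoters are from the members of lowest p that passed the test and held the element in the stretch printed. Each printed stretch was therefore certain to hold it, and members without it were passed over. Members on the chromosome that holds STC1 and NDRG1 were left out of the choice. Each stretch is the 150 bases before the gene's start in RefSeq (GRCh38.p14), read 5′ to 3′ on the strand of the gene, with the element in capitals on either strand. IFIT1 (chr10:89392473-89392622, plus strand) and EPSTI1 (chr13:42992242-42992391, minus strand) are interferon-stimulated genes, and the capitals mark the core of the interferon-stimulated response element, GAAANNGAA. H2AC11 (chr6:27132893-27133042, plus strand) and H3C7 (chr6:26250636-26250785, minus strand) are replication-dependent histone genes, and the capitals mark CCAAT. PLIN2 (chr9:19127493-19127642, minus strand) and CA9 (chr9:35673778-35673927, plus strand) are hypoxia targets, and the capitals mark the hypoxia response element, ACGTGC, which shares letters with the E-box CACGTG where a C stands before it.
IFIT1 promoter: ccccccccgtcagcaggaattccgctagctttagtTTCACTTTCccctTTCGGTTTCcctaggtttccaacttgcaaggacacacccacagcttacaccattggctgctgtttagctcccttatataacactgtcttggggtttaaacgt
EPSTI1 promoter: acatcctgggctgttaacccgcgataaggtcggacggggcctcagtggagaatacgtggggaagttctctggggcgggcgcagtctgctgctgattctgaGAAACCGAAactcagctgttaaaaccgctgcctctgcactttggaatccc
H2AC11 promoter: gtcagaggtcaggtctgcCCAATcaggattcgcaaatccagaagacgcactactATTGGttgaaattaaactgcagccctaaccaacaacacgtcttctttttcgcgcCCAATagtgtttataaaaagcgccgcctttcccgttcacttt
H3C7 promoter: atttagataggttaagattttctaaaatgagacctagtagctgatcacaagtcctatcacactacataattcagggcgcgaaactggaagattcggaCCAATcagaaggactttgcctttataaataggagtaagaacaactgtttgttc
PLIN2 promoter: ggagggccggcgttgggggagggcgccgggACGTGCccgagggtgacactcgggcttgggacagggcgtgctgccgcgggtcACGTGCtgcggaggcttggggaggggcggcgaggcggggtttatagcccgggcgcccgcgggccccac
CA9 promoter: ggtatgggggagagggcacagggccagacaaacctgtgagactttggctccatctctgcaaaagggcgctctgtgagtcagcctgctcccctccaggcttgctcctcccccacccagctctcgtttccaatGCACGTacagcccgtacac

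These elements were counted in windows from 250 bases before to 50 bases after the start, which were at hand for 11428 of the 18464 tested genes with a symbol. The interferon element core lay in 20 of 28 windows of interferon-stimulated genes (71.4%), against 6.39% of all windows. CCAAT lay in 34 of 41 histone windows (82.9%) and in 25 of 33 windows of mitosis genes (75.8%), against 36.6% of all. The hypoxia element lay in 10 of 22 windows of hypoxia targets (45.5%) and in 5 of 19 of glycolytic genes (26.3%), against 8.67% of all. These shares describe the lists, which were drawn up from known functions with earlier results of these data known. Over all genes that were higher with GO-203 the same elements were at 7.82%, 35.0% and 8.23%, and over those that were lower at 6.64%, 38.3% and 9.45%, all near the shares of every window. CACGTG, the E-box that MYC and MAX bind, lay in 10.1% of windows of the genes that were higher and 10.6% of those that were lower, against 9.88% of all. A match describes the letters of a window and does not show that a factor binds there.

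Total counts ran from 38026597 to 67272436 per library. VIM, CD44 and FN1, genes of the mesenchymal state in which BT-549 cells grow, were high in all 6 libraries (FN1 at 6671, 6876 and 6143 CPM in the control libraries and 6619, 6795 and 6827 CPM in the GO-203 libraries). ESR1 and PGR, the hormone receptors whose absence defines TNBC, did not pass 0.18 CPM in any of the 6, where CPM is a gene's count per library total after scaling by the TMM factor of that library. ERBB2, the receptor that TNBC does not amplify, was at 22.9, 22 and 22.4 CPM in the control libraries and 22.6, 22.4 and 20.1 CPM in the GO-203 libraries. The first principal component held 54.7% of the variance and separated the groups. MUC1 was at 212, 218 and 175 CPM in the control libraries and 255, 269 and 239 CPM in the GO-203 libraries. The MUC1 transcript was therefore higher with the inhibitor in every library (log2 fold change 0.33 ± 0.07 SE, adjusted p = 0.00191 by edgeR's quasi-likelihood test, which gives each adjusted p below unless another is named). MYC, which MUC1-C is known to bind, was at 576, 545 and 579 CPM in the control libraries and 552, 546 and 587 CPM in the GO-203 libraries and did not pass the test (log2 fold change -0.01 ± 0.05, adjusted p = 0.908).

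Most changes under GO-203 were small and shared by many genes. At an adjusted p below 0.1 and any size, 2059 genes were higher (11.1% of the 18488 tested) and 2393 lower (12.9%), and 3166 of these, or 71.1%, moved by less than 0.5 on the log2 scale. The median size among them was 0.33. Adding a size above 1.5 on the log2 scale left 92 genes higher (0.498%) and 48 lower (0.26%). This lean to rises was lost with DESeq2 (30 higher and 32 lower), with at least 10 counts asked of every library (24 and 23) and without GO-203 replicate 2 (73 and 71). In 3030 genes (16.4%) every GO-203 library lay above every control library, and in 3204 (17.3%) every one lay below. The median log2 fold change over all genes tested was 0.02, and each list below is set against that value and against 11.1% higher and 12.9% lower.

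**Figure D1:**
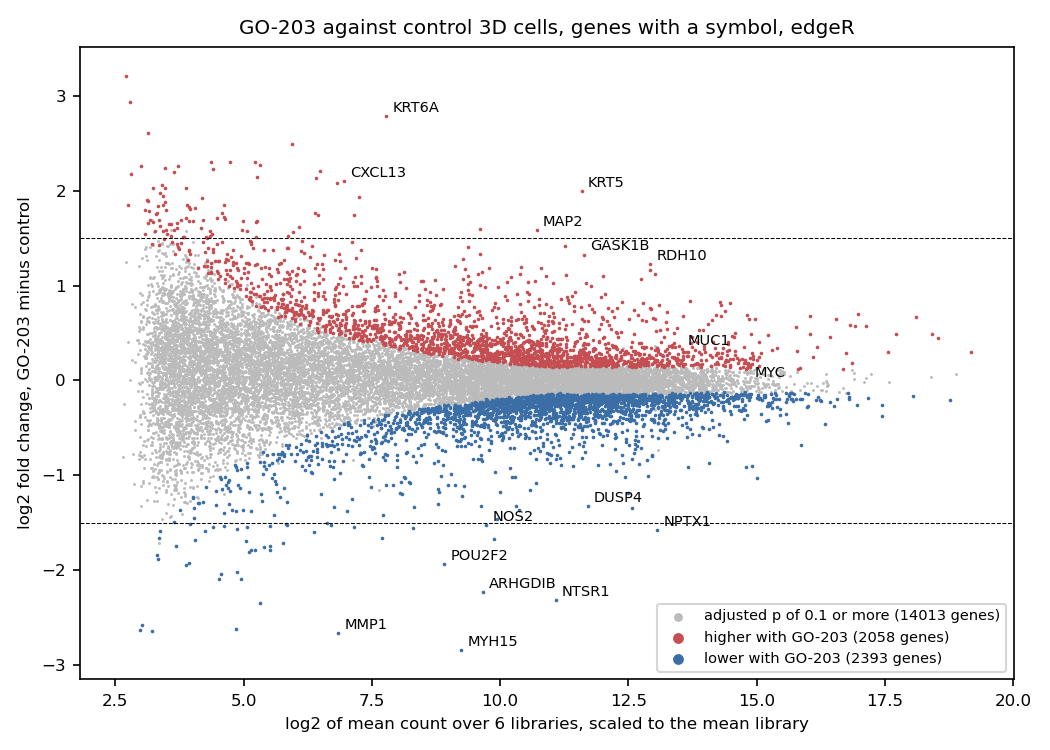
Each point is 1 of the 18464 tested genes with a symbol, with the mean count over the 6 libraries on the x axis (log2, scaled to the mean library) and the log2 fold change of GO-203 minus control on the y axis. Red and blue points passed an adjusted p below 0.1, dashed lines mark 1.5 in either direction, and most coloured points lie well inside those lines.

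The largest rises among well-counted genes took in structural genes of basal epithelium. KRT6A, a keratin of activated and basal epithelial cells, was at 1.03, 1.06 and 1.09 CPM in the control libraries and 7.23, 8.03 and 6.86 CPM in the GO-203 libraries, a 6.92-fold difference (log2 fold change 2.79 ± 0.16, adjusted p = 5.14e-11). KRT5, the keratin of basal mammary cells, was at 25.2, 21.8 and 24 CPM in the control libraries and 97.1, 99.1 and 88.4 CPM in the GO-203 libraries (log2 fold change 2.00 ± 0.07, adjusted p = 9.94e-15). Both keratins were several times higher in every GO-203 library than in any control library. Of 16 tested keratin and epithelial junction genes, 5 rose and 2 fell, with a median of 0.17 (0.06 without control replicate 1). The other risers included KRT7, of simple epithelium (log2 fold change 0.39 ± 0.07), and KRT80 (0.25 ± 0.06), while the tight junction gene CLDN1 (-0.45 ± 0.06) and the desmosomal plakoglobin JUP (-0.96 ± 0.26) fell.

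Outside the keratins, the genes that rose most came from several kinds of function. ITGB8, the integrin subunit that frees TGF-beta from its latent form, was at 1.36, 1.23 and 1.07 CPM in the control libraries and 4.87, 4.47 and 4.65 CPM in the GO-203 libraries (log2 fold change 1.94 ± 0.18, adjusted p = 6.52e-08). MAP2, a microtubule-binding protein best known from neurons, was at 15.7, 15.9 and 16.7 CPM in the control libraries and 49.6, 45.8 and 49.7 CPM in the GO-203 libraries (log2 fold change 1.59 ± 0.07, adjusted p = 2.63e-13). Both genes rose by 3-fold or more without overlap between groups. ADAMTS1, a secreted protease that cuts proteoglycans, was at 7.42, 7.19 and 7.83 CPM in the control libraries and 22.6, 22.9 and 22.4 CPM in the GO-203 libraries (log2 fold change 1.60 ± 0.09, adjusted p = 1.87e-11). CXCL13, a chemokine for B cells, was low and was at 0.527, 1.11 and 1.04 CPM in the control libraries and 3.59, 3.77 and 4.29 CPM in the GO-203 libraries (log2 fold change 2.10 ± 0.23, adjusted p = 7.95e-07). RDH10, which makes retinaldehyde from retinol, was at 91.6, 86.3 and 91.2 CPM in the control libraries and 212, 208 and 209.5 CPM in the GO-203 libraries (log2 fold change 1.23 ± 0.06, adjusted p = 1.60e-12). In these 3 genes every GO-203 library was above every control library. HPSE, the enzyme that cleaves heparan sulfate and one of the 10 genes of lowest p, was at 91.6, 91 and 93.8 CPM in the control libraries and 205, 205 and 212 CPM in the GO-203 libraries (log2 fold change 1.17 ± 0.06, adjusted p = 2.81e-12). CNR1, a cannabinoid receptor (1.42 ± 0.07), GASK1B, a Golgi protein (1.33 ± 0.06), CDH11, a mesenchymal cadherin (1.41 ± 0.10), and BACH2, a transcriptional repressor (1.33 ± 0.10), were among the 20 largest rises.

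The deepest falls were in genes of quite different roles. MYH15, a myosin heavy chain, was at 22.1, 18.9 and 20.4 CPM in the control libraries and 2.83, 2.71 and 2.97 CPM in the GO-203 libraries, the largest fall among well-counted genes (log2 fold change -2.85 ± 0.11, adjusted p = 8.86e-14). MMP1, the collagenase that cuts fibrillar collagen, was at 4.48, 3.13 and 3.83 CPM in the control libraries and 0.853, 0.516 and 0.448 CPM in the GO-203 libraries (log2 fold change -2.67 ± 0.25, adjusted p = 5.75e-08). NTSR1, a receptor for neurotensin, was at 71.7, 69.7 and 67.4 CPM in the control libraries and 14.3, 13 and 14.4 CPM in the GO-203 libraries (log2 fold change -2.32 ± 0.06) and had the lowest adjusted p of all genes, 2.16e-16. All 3 lay far below the controls in each GO-203 library. ARHGDIB, an inhibitor of small GTPases, was at 24.2, 25.4 and 27.9 CPM in the control libraries and 4.76, 5.94 and 5.75 CPM in the GO-203 libraries (log2 fold change -2.23 ± 0.10, adjusted p = 8.48e-13). NPTX1, a secreted pentraxin, was at 238, 239.9 and 262 CPM in the control libraries and 82.4, 79.2 and 86.8 CPM in the GO-203 libraries (log2 fold change -1.57 ± 0.06, adjusted p = 1.14e-13). NOS2, the inducible nitric oxide synthase, was at 25.2, 24.6 and 22.8 CPM in the control libraries and 7.81, 8.47 and 8.9 CPM in the GO-203 libraries (log2 fold change -1.52 ± 0.09, adjusted p = 4.11e-11). The transcription factor POU2F2 (-1.93 ± 0.11), the aldehyde oxidase AOX1 (-1.67 ± 0.08), the membrane protease ADAM19 (-1.46 ± 0.08) and the placental growth factor gene PGF (-1.52 ± 0.23) fell without overlap as well. NOS2 has 4 named pseudogenes, so its count is less certain than the others.

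The 13 protein-coding genes of mitochondrial DNA (mtDNA) rose as a block. They encode subunits of complexes I, III, IV and V of the respiratory chain, and all 13 passed the test as higher, with a median log2 fold change of 0.59 and no overlap between groups in any of them. MT-ND4, a complex I subunit, was at 4146, 4550.0 and 3762 CPM in the control libraries and 6060.0, 7704 and 6071 CPM in the GO-203 libraries (log2 fold change 0.67 ± 0.07, adjusted p = 4.52e-07). MT-CYB, the subunit of complex III made in the organelle, was at 1889, 2032 and 1737 CPM in the control libraries and 2847, 3588 and 2774 CPM in the GO-203 libraries (log2 fold change 0.70 ± 0.07, adjusted p = 2.41e-07). MT-CO1, the catalytic subunit of complex IV, was at 5684, 6065 and 5034 CPM in the control libraries and 7217, 9228 and 7127 CPM in the GO-203 libraries (log2 fold change 0.49 ± 0.07, adjusted p = 3.69e-05). In these 3 genes, as in the others, GO-203 replicate 2 was the highest library. MT-ATP6, a subunit of the ATP synthase, was at 1819, 1835 and 1698 CPM in the control libraries and 2448, 3153 and 2445 CPM in the GO-203 libraries (log2 fold change 0.59 ± 0.07, adjusted p = 1.76e-06). MT-ND6, the one protein gene on the light strand of mtDNA, was at 419, 468 and 384 CPM in the control libraries and 635, 800.1 and 625 CPM in the GO-203 libraries (log2 fold change 0.70 ± 0.08, adjusted p = 1.06e-06). The smallest rise of the 13 was in MT-ND3 (log2 fold change 0.40 ± 0.06). MT-ATP8 shares bases with its neighbour MT-ATP6, so reads of the pair cannot be fully told apart.

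As a share of all counts, the 13 genes took 2.46%, 2.65% and 2.27% in the control libraries and 3.38%, 4.36% and 3.32% in the GO-203 libraries. The exact permutation test gave p = 0.1, the smallest that 3 against 3 allows (two-sided, adjusted p = 0.14 over 7 shares). The 2 ribosomal RNA genes of mtDNA overlapped between the groups, at 0.0517%, 0.0686% and 0.0473% of counts with control and 0.0893%, 0.0366% and 0.0274% with GO-203 (exact permutation test, two-sided p = 0.9, adjusted p = 0.9). Without GO-203 replicate 2 the median log2 fold change of the list was 0.47. The nuclear noncoding RNAs MALAT1 and NEAT1 ran the same way across the libraries. MALAT1, a nuclear speckle RNA, was at 6446, 7073 and 5097 CPM in the control libraries and 7865, 9587 and 7889 CPM in the GO-203 libraries (log2 fold change 0.44 ± 0.08, adjusted p = 3.94e-04). NEAT1, the scaffold of paraspeckles, was at 394, 468 and 301 CPM in the control libraries and 503, 628 and 516 CPM in the GO-203 libraries (log2 fold change 0.50 ± 0.10, adjusted p = 0.00131). Within each group, both were highest in replicate 2, the library in which the mtDNA genes were also highest. The part of RNA quality or library make-up in the mtDNA result was not tested.

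**Figure D2:**
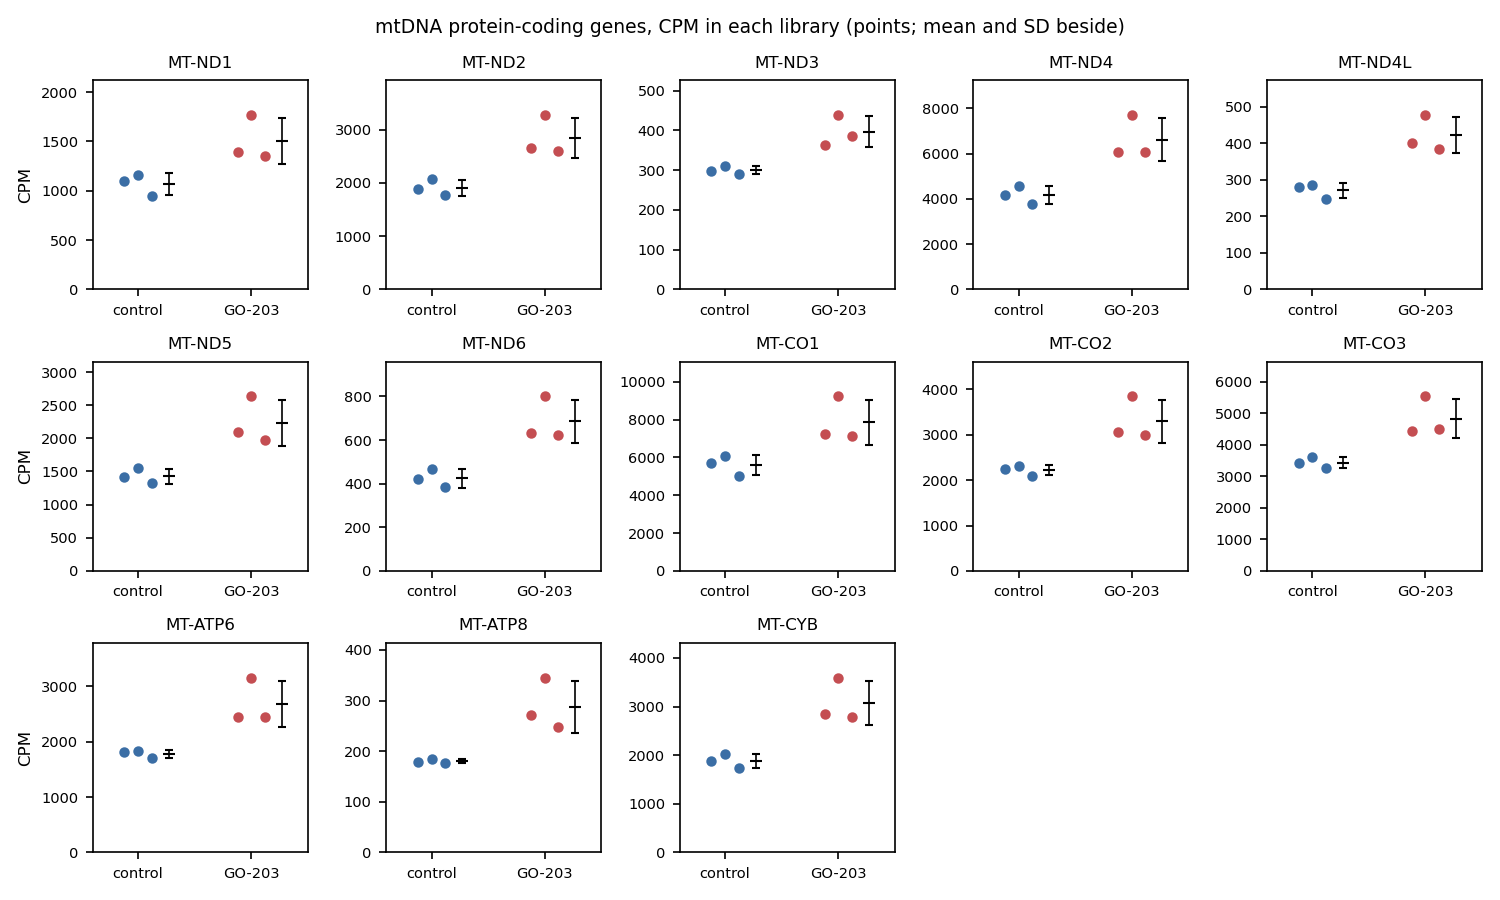
Each panel is 1 mtDNA protein-coding gene, with CPM on a y axis that starts at 0, blue points for the 3 control libraries, red points for the 3 GO-203 libraries and a black bar for the mean and SD of each group. In all 13 panels the red points lie above the blue ones, and the middle red point, GO-203 replicate 2, is the highest.

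The nuclear genes that work with these 13 did not rise with them. Of 37 nuclear subunits of complex I, 0 rose and 10 fell, with a median of -0.07, and 6 fell without control replicate 1. NDUFB4, an accessory subunit, was at 51.6, 42.9 and 45.7 CPM in the control libraries and 38.1, 35.8 and 36.4 CPM in the GO-203 libraries (log2 fold change -0.34 ± 0.07, adjusted p = 6.01e-04), while NDUFS1, the largest core subunit, was at 163, 161 and 166 CPM in the control libraries and 159.9, 159 and 171 CPM in the GO-203 libraries and did not pass (-0.00, adjusted p = 0.986). Of the 14 nuclear genes of complexes II and III and cytochrome c, 1 rose and 5 fell; of 12 for complex IV, 1 rose and 2 fell (1 without control replicate 1 and 5 without control replicate 2); and of 18 for the ATP synthase, 1 rose and 6 fell. The single riser in the first of these lists was CYCS, the electron carrier cytochrome c, at 569, 589.7 and 612 CPM in the control libraries and 711, 629 and 768 CPM in the GO-203 libraries (log2 fold change 0.25 ± 0.06, adjusted p = 0.00489), whose 42 named pseudogenes make the count uncertain. CYC1, the cytochrome of complex III, went the other way (log2 fold change -0.23 ± 0.06, adjusted p = 0.00841), a call lost with the GC content offset described below (-0.09, adjusted p = 0.306). The single risers of the complex IV and ATP synthase lists, NDUFA4 and ATP5MG, lost their calls in 7 and 5 of the alternative settings. The share lower in complex IV is near the background of 12.9%.

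The factors that copy and read mtDNA were on balance slightly lower. Of 15 tested, 1 rose and 6 fell, with a median of -0.08, and 3 fell without control replicate 1. TFB1M, which methylates mitochondrial ribosomal RNA, was at 31.2, 31.9 and 30.4 CPM in the control libraries and 23.7, 23 and 24.4 CPM in the GO-203 libraries (log2 fold change -0.39 ± 0.07, adjusted p = 1.49e-04). POLG, the mitochondrial DNA polymerase, was at 38.7, 37.6 and 34.4 CPM in the control libraries and 29.7, 31.7 and 30 CPM in the GO-203 libraries (log2 fold change -0.28 ± 0.06, adjusted p = 0.00393). TFAM, which packages mtDNA and starts its transcription, was at 136, 140.3 and 144 CPM in the control libraries and 124, 121 and 134 CPM in the GO-203 libraries, at the edge of the threshold (log2 fold change -0.15 ± 0.06, adjusted p = 0.0958). The mitochondrial RNA polymerase POLRMT was at 39.9, 33.7 and 34.4 CPM in the control libraries and 32.2, 37.4 and 32.2 CPM in the GO-203 libraries and did not pass (adjusted p = 0.499). Other lists of the organelle also held more falls than rises. Of 77 mitochondrial ribosomal proteins, 2 rose and 31 fell (median -0.15), of 27 import and chaperone genes 1 rose and 12 fell (median -0.15), and of 19 citric acid cycle enzymes 1 rose and 7 fell (median -0.11). MRPS34, of the small mitoribosomal subunit, was at 33.4, 28.4 and 29.6 CPM in the control libraries and 22.8, 21.1 and 18.1 CPM in the GO-203 libraries (log2 fold change -0.56 ± 0.08, adjusted p = 4.39e-05), and TIMM13, a chaperone of the intermembrane space, was at 31.4, 28.1 and 29.1 CPM in the control libraries and 20.8, 24.8 and 20.8 CPM in the GO-203 libraries (log2 fold change -0.42 ± 0.08, adjusted p = 4.78e-04). TRAP1, the mitochondrial HSP90, fell as well (log2 fold change -0.35 ± 0.06, adjusted p = 4.63e-04). IDH2, the NADP-dependent isocitrate dehydrogenase of mitochondria, was the riser among the cycle enzymes at 14.2, 12 and 13.8 CPM in the control libraries and 17.4, 17 and 18 CPM in the GO-203 libraries (log2 fold change 0.39 ± 0.09, adjusted p = 0.00297).

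**Figure D3:**
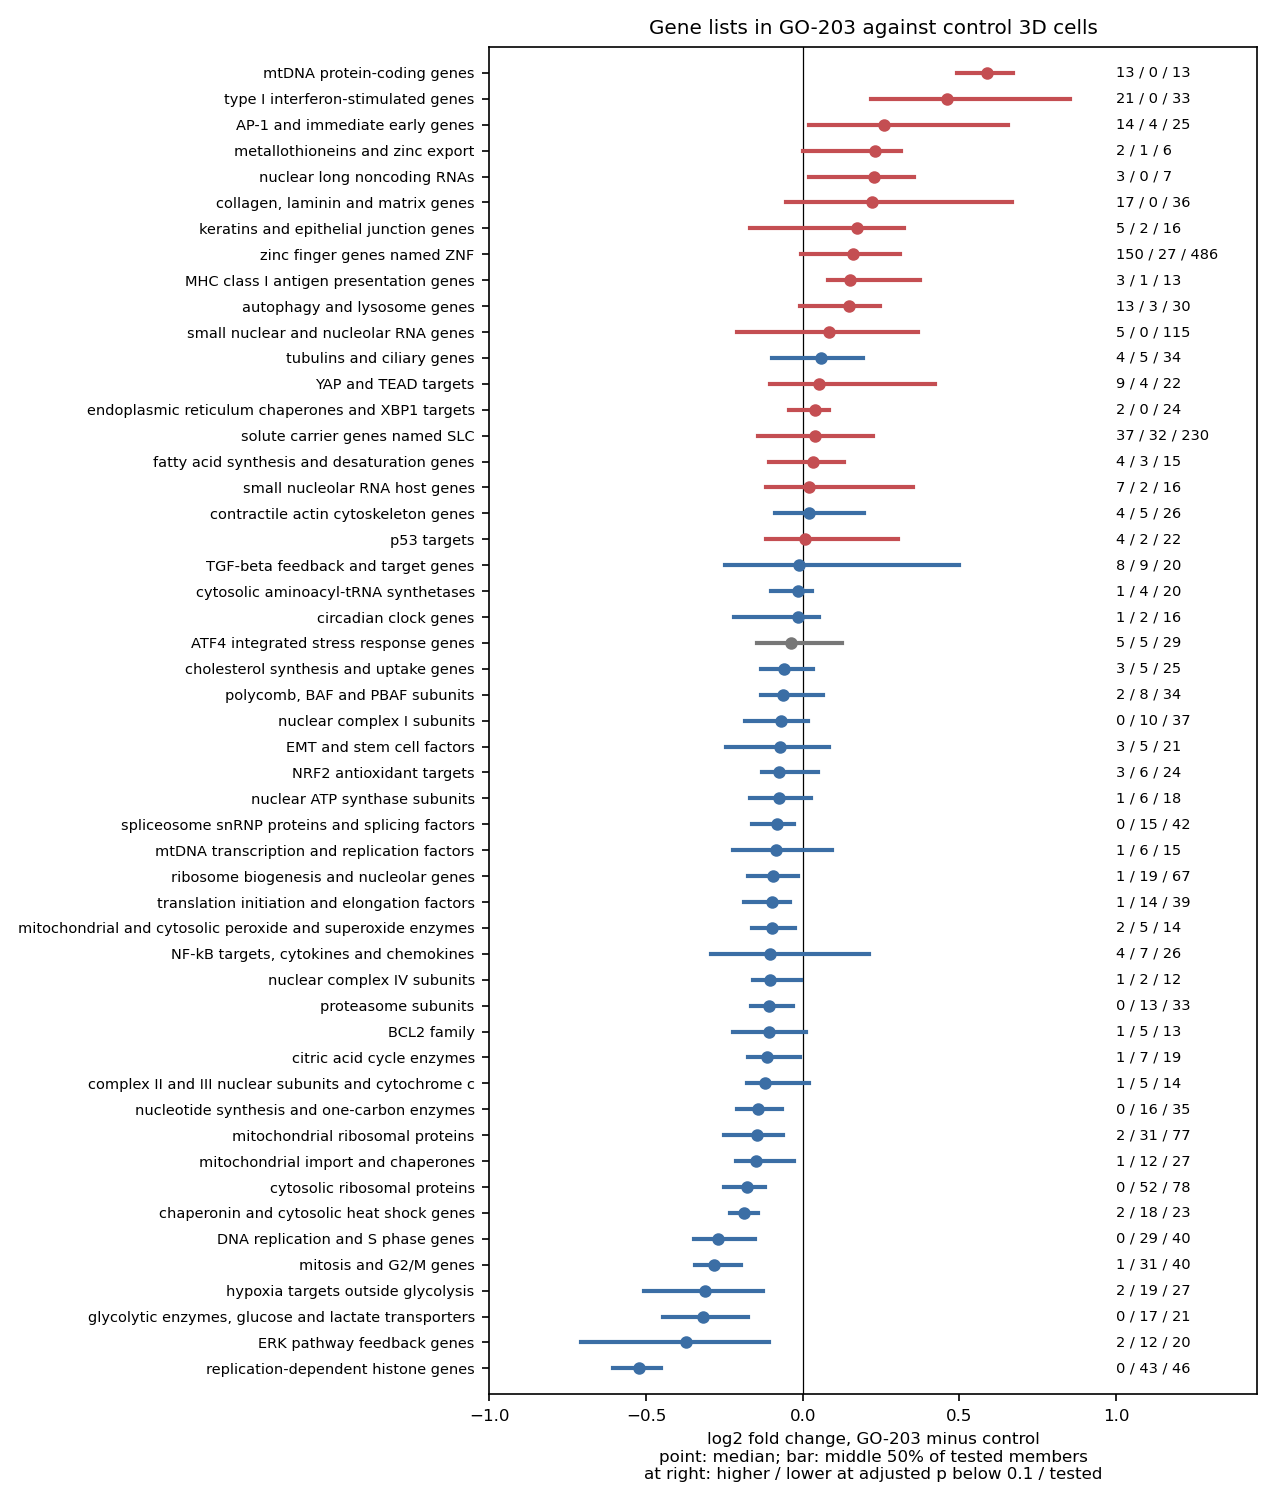
Each line is 1 of 51 gene lists, with the median log2 fold change of its tested members as a point and their middle 50% as a bar, and with the numbers that passed an adjusted p below 0.1 as higher and lower and the number tested at the right. Red lists had more members higher, blue more lower and grey as many of each, and the mtDNA genes (0.59) and the replication-dependent histone genes (-0.52) stand at the ends.

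Genes of the answer to low oxygen fell together. Of 27 hypoxia targets outside glycolysis, 2 rose and 19 fell, with a median of -0.31. STC1, a secreted glycoprotein, was at 834, 833 and 871 CPM in the control libraries and 406, 369.9 and 464 CPM in the GO-203 libraries (log2 fold change -1.03 ± 0.06, adjusted p = 1.16e-10). ANGPTL4, which inhibits lipoprotein lipase, was at 205, 181 and 197 CPM in the control libraries and 96, 96.7 and 97.5 CPM in the GO-203 libraries (log2 fold change -1.01 ± 0.06, adjusted p = 8.09e-11). Over the groups, GO-203 was at 0.489 times control for STC1 and at 0.497 times for ANGPTL4. PLIN2, the lipid droplet coat whose promoter with 2 copies of the hypoxia element is printed above, was at 1421, 1358 and 1468 CPM in the control libraries and 894, 800.2 and 959.5 CPM in the GO-203 libraries (log2 fold change -0.68 ± 0.06, adjusted p = 1.25e-08). CA9, the carbonic anhydrase with the element close to its start, was at 44.8, 42.6 and 41.4 CPM in the control libraries and 25.1, 28.9 and 27.4 CPM in the GO-203 libraries (log2 fold change -0.66 ± 0.07, adjusted p = 1.63e-07). NDRG1, a stress-responsive gene, was at 529, 500.0 and 505 CPM in the control libraries and 319, 317 and 346 CPM in the GO-203 libraries (log2 fold change -0.64 ± 0.05, adjusted p = 1.25e-08). The fold changes of these last 3 lay within a narrow span. LOX, the collagen cross-linking oxidase, was at 1130.0, 1185 and 1189 CPM in the control libraries and 1058, 986 and 1228 CPM in the GO-203 libraries, without a call (log2 fold change -0.10 ± 0.06, adjusted p = 0.3). The 2 that rose against the list were P4HA2, a prolyl hydroxylase of collagen (log2 fold change 0.28 ± 0.06), and PDK3, a kinase that turns off pyruvate dehydrogenase (0.46 ± 0.07); both were picked here after their values were seen.

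The 21 tested glycolytic enzymes and glucose and lactate transporters went the same way, with 0 rising and 17 falling and a median of -0.32. At the entry to the pathway, HK2, the inducible hexokinase, was at 353, 353 and 335 CPM in the control libraries and 223, 214 and 260.4 CPM in the GO-203 libraries (log2 fold change -0.58 ± 0.06, adjusted p = 9.56e-07), and HK1, the housekeeping hexokinase, was at 106, 98.6 and 96.7 CPM in the control libraries and 74.1, 66.2 and 77.7 CPM in the GO-203 libraries (log2 fold change -0.46 ± 0.07, adjusted p = 2.27e-05). Further down, PGK1, which makes the first ATP of the pathway, was at 1103, 1063 and 1139 CPM in the control libraries and 800.1, 775 and 853 CPM in the GO-203 libraries (log2 fold change -0.44 ± 0.05, adjusted p = 8.37e-07). All 3 were lower in every GO-203 library. PFKFB4, which makes the activator of phosphofructokinase and is counted among the hypoxia targets, fell by a like amount (log2 fold change -0.45 ± 0.06, adjusted p = 2.46e-05). GAPDH fell too (log2 fold change -0.38 ± 0.04), with 65 named pseudogenes that share its sequence. LDHA, the lactate dehydrogenase at the exit, was at 1665, 1576 and 1728 CPM in the control libraries and 1633, 1444 and 1706 CPM in the GO-203 libraries and did not pass (log2 fold change -0.05 ± 0.05, adjusted p = 0.557).

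Replication-dependent histone genes were the list with the largest share of members passing the test as lower. These genes are read in S phase to package new DNA, and their transcripts end in a stem-loop in place of a poly(A) tail, so an mRNA library prepared with TruSeq Stranded mRNA picks up few of them. Of 46 tested, 0 rose and 43 fell, with a median of -0.52. H2AC11, the H2A gene whose promoter with 3 CCAAT boxes is shown above, was at 123, 99.6 and 113 CPM in the control libraries and 63.9, 64.3 and 54.7 CPM in the GO-203 libraries (log2 fold change -0.88 ± 0.08, adjusted p = 2.31e-08). H3C7, an H3 gene with 1 CCAAT box, was at 59.4, 48.6 and 52.5 CPM in the control libraries and 32.3, 33.8 and 33.9 CPM in the GO-203 libraries (log2 fold change -0.68 ± 0.07, adjusted p = 1.45e-07). H1-5, a linker histone, was at 319.7, 289.7 and 325 CPM in the control libraries and 216, 213 and 203.10 CPM in the GO-203 libraries (log2 fold change -0.56 ± 0.06, adjusted p = 2.76e-07). In these 3 genes the highest GO-203 library was well under the lowest control. The other linker histones H1-2, H1-3 and H1-4 had log2 fold changes of -0.49, -0.61 and -0.61. As a share of all counts the family took 0.444%, 0.392% and 0.431% with control and 0.308%, 0.319% and 0.288% with GO-203 (exact permutation test, two-sided p = 0.1, the smallest possible, adjusted p = 0.14). Histone genes are near copies of each other, so reads may be split between them in ways a single gene's value does not show. In bulk RNA, fewer cells in S phase and less histone RNA in each such cell cannot be told apart, and the same holds for the groups that follow.

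Genes of DNA copying and cell division were lower too. Of 40 DNA replication and S phase genes, 0 rose and 29 fell (median -0.27), and of 40 mitosis genes, 1 rose and 31 fell (median -0.28). CDT1, which loads the replicative helicase, was at 48.7, 40.6 and 40.6 CPM in the control libraries and 26.8, 28.6 and 25.5 CPM in the GO-203 libraries (log2 fold change -0.69 ± 0.07, adjusted p = 5.18e-07). UHRF1, which carries DNA methylation to new strands, was at 172, 159 and 149 CPM in the control libraries and 108, 106 and 104 CPM in the GO-203 libraries (log2 fold change -0.59 ± 0.06, adjusted p = 3.21e-07). ORC1, of the origin recognition complex, was at 47.2, 52 and 47.9 CPM in the control libraries and 35.1, 31.7 and 32.6 CPM in the GO-203 libraries (log2 fold change -0.56 ± 0.06, adjusted p = 5.91e-07). These 3 genes lay between 0.622 and 0.676 times their control level. Helicase subunits moved less, as MCM2 (log2 fold change -0.38 ± 0.06) and MCM4 (-0.31 ± 0.05) show. In mitosis, HMMR, a spindle-associated protein, was at 89.3, 93.6 and 102 CPM in the control libraries and 64.8, 59.9 and 65 CPM in the GO-203 libraries (log2 fold change -0.59 ± 0.06, adjusted p = 5.89e-07). CDC20, the activator of the anaphase-promoting complex, was at 197, 172 and 176 CPM in the control libraries and 142, 136 and 124 CPM in the GO-203 libraries (log2 fold change -0.44 ± 0.07, adjusted p = 4.43e-05). AURKA and AURKB, the mitotic kinases, and FOXM1, which drives transcription of this group, had log2 fold changes of -0.40, -0.41 and -0.40. The groups of libraries did not overlap for any of the 10 genes named here. An E2F site, TTTGGCGC on either strand, lay in 8 of 33 windows of the replication genes (24.2%), against 1.06% of all windows.

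Enzymes that supply nucleotides followed. Of 35 tested in nucleotide synthesis and one-carbon metabolism, 0 rose and 16 fell, with a median of -0.14. TYMS, which makes thymidylate, was at 17.1, 17.3 and 16.6 CPM in the control libraries and 12.5, 10.1 and 10.2 CPM in the GO-203 libraries (log2 fold change -0.64 ± 0.10, adjusted p = 4.13e-05), and TK1, the S-phase thymidine kinase, was at 30, 28.6 and 29.7 CPM in the control libraries and 21.4, 21.3 and 20.6 CPM in the GO-203 libraries (log2 fold change -0.48 ± 0.07, adjusted p = 1.90e-05). RRM2, the inducible subunit of ribonucleotide reductase, was lower as well (log2 fold change -0.39 ± 0.06, adjusted p = 3.36e-05). Those with the lowest p in the list were thus the ones tied to S phase, while TKT, the transketolase, was at 559.8, 522 and 544 CPM in the control libraries and 513, 520.0 and 497 CPM in the GO-203 libraries without a call.

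The machinery of protein synthesis was slightly but widely lower. Of 78 cytosolic ribosomal proteins, 0 rose and 52 fell, with a median of -0.18, and together they took 4.82%, 4.50% and 4.77% of counts with control and 4.29%, 4.23% and 4.06% with GO-203 (exact permutation test, two-sided p = 0.1, the smallest possible, adjusted p = 0.14). RPL28, of the large subunit, was at 442, 369 and 372 CPM in the control libraries and 306, 319 and 262 CPM in the GO-203 libraries (log2 fold change -0.42 ± 0.07, adjusted p = 2.62e-04). RPL11, which also binds MDM2, was at 598, 544 and 578 CPM in the control libraries and 477, 476 and 431 CPM in the GO-203 libraries (log2 fold change -0.31 ± 0.05, adjusted p = 2.63e-04). RPS6, the target of S6 kinase, was at 2198, 2028 and 1970.0 CPM in the control libraries and 2023, 1965 and 1888 CPM in the GO-203 libraries without a call (adjusted p = 0.3). The size of the falls was thus near the median in most and not the same in each. Without control replicate 1 the falls numbered 34. Many ribosomal protein genes have processed pseudogenes, 15 of them named for RPS6, which makes single values uncertain. Of 39 translation factors 1 rose and 14 fell (9 without control replicate 1), and EEF2, the translocase of elongation, was at 3942, 3586 and 3685 CPM in the control libraries and 3210.0, 3123 and 3043 CPM in the GO-203 libraries (log2 fold change -0.26 ± 0.04, adjusted p = 1.37e-04). EIF5, a GTPase activator in initiation, was the riser, at 259.6, 267 and 280.4 CPM in the control libraries and 331, 313 and 336 CPM in the GO-203 libraries (log2 fold change 0.28 ± 0.05, adjusted p = 7.63e-04). Of 67 ribosome biogenesis genes 1 rose and 19 fell (median -0.09), with FBL, which methylates ribosomal RNA, among the falls (log2 fold change -0.32 ± 0.06, adjusted p = 4.01e-04). The 20 cytosolic tRNA synthetases gave 1 rise and 4 falls, and 2 falls without control replicate 1, control replicate 3 or GO-203 replicate 3, which is near the background.

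Cytosolic chaperones fell and endoplasmic reticulum chaperones hardly moved. Of 23 chaperonin and heat shock genes 2 rose and 18 fell, with a median of -0.19. HSPH1, the HSP110 exchange factor, was at 483, 474 and 476 CPM in the control libraries and 323, 315 and 317 CPM in the GO-203 libraries (log2 fold change -0.59 ± 0.05, adjusted p = 1.69e-08), and HSP90AA1, the inducible HSP90, was at 1833, 1794 and 1881 CPM in the control libraries and 1413, 1261 and 1340.0 CPM in the GO-203 libraries (log2 fold change -0.46 ± 0.05, adjusted p = 3.08e-07). HSPA8, the constitutive HSP70, fell less (log2 fold change -0.26 ± 0.04, adjusted p = 1.34e-04). Of 24 endoplasmic reticulum chaperones and XBP1 targets, 2 rose and 0 fell, with 6 rising without GO-203 replicate 2 and 0 in the fit of all 21 libraries, and HSPA5, the chaperone BiP, was at 1601, 1538 and 1605 CPM in the control libraries and 1454, 1364 and 1602 CPM in the GO-203 libraries without a call (log2 fold change -0.10 ± 0.05, adjusted p = 0.194). The 33 proteasome subunits gave 0 rises and 13 falls (median -0.11), and the 42 spliceosome genes 0 rises and 15 falls (median -0.08). Without control replicate 1 these falls numbered 6 and 5, the latter near the background, and without control replicate 3 they numbered 8 and 9.

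**Figure D4:**
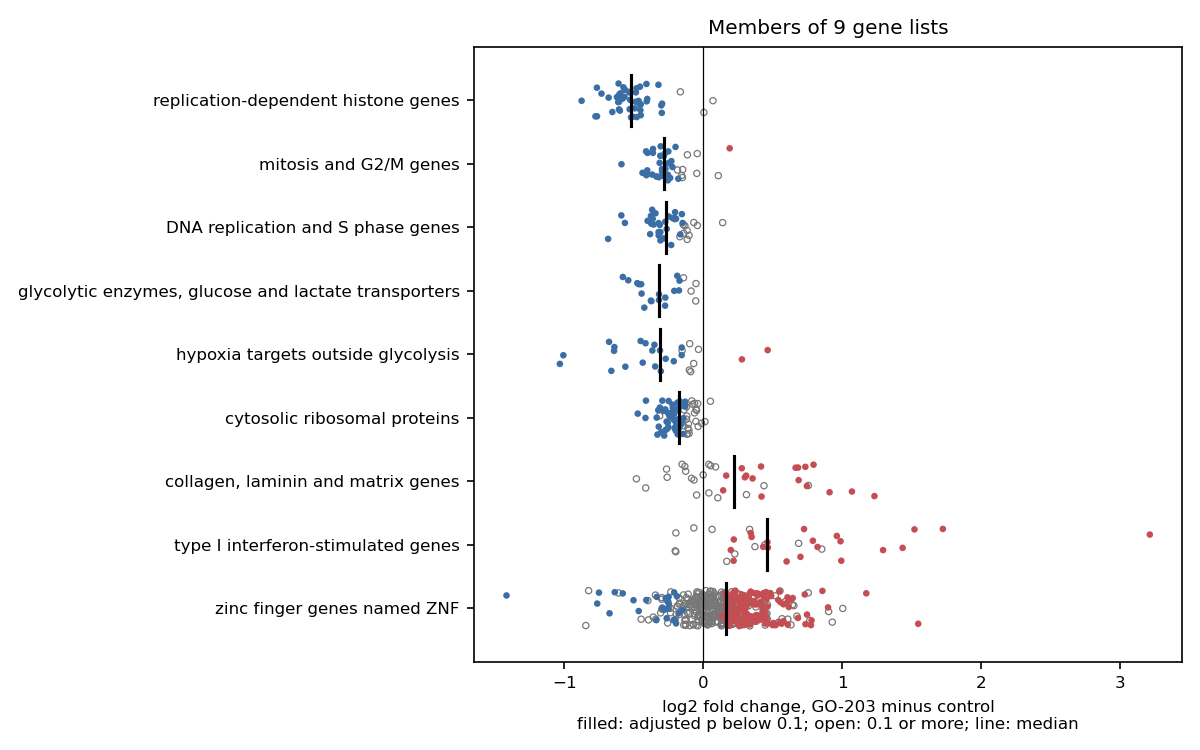
Each point is 1 tested member of 9 lists, placed by its log2 fold change of GO-203 minus control on the x axis, filled where the adjusted p was below 0.1 and open elsewhere, with a black line at the list's median. Histone, cell division, glycolysis, hypoxia and ribosomal protein genes lie mostly left of 0, while matrix, interferon-stimulated and zinc finger genes lie mostly right of it, with wide spread in the interferon list.

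Interferon-stimulated genes were higher with GO-203, many of them at low levels. These genes are switched on when interferon or cytosolic nucleic acid sensors activate the STAT and IRF transcription factors. Of 33 tested, 21 rose and 0 fell, with a median of 0.46. PARP9, a partner of the ubiquitin ligase DTX3L, was at 14.2, 12.5 and 13 CPM in the control libraries and 25.1, 22.6 and 22.5 CPM in the GO-203 libraries (log2 fold change 0.82 ± 0.08, adjusted p = 2.03e-07). DTX3L itself was at 52.6, 54.3 and 50.3 CPM in the control libraries and 75.8, 69.7 and 70.7 CPM in the GO-203 libraries (log2 fold change 0.46 ± 0.06, adjusted p = 6.11e-06). These 2 genes share 1 promoter region on opposite strands and both rose without overlap. IFIT1, which binds viral RNA caps and whose promoter with 2 interferon elements is printed above, was at 1.14, 1.92 and 1.79 CPM in the control libraries and 4.08, 4.24 and 3.65 CPM in the GO-203 libraries (log2 fold change 1.29 ± 0.20, adjusted p = 6.06e-05). EPSTI1, a stromal and interferon-induced gene with 1 element, was at 85.2, 79.3 and 85.4 CPM in the control libraries and 107, 100.4 and 109 CPM in the GO-203 libraries (log2 fold change 0.34 ± 0.06, adjusted p = 2.69e-04). DDX60, a helicase that helps RNA sensors, was at 1.48, 2 and 2 CPM in the control libraries and 3.73, 3.62 and 3.6 CPM in the GO-203 libraries (log2 fold change 0.99 ± 0.18, adjusted p = 4.30e-04). MX1, an antiviral GTPase picked after its values were seen, was low in all libraries, at 0.324, 0.346 and 0.418 CPM in the control libraries and 1.01, 1.11 and 0.864 CPM in the GO-203 libraries. Some members passed the count filter only through the GO-203 libraries, where they were higher; with at least 10 counts asked of every library, 19 of 29 rose and 0 fell (median 0.44). IRF9 and IRF7, picked in the same way as MX1, did not pass the test (log2 fold changes -0.20 and -0.07). No gene for interferon alpha or beta passed the count filter.

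Antigen presentation genes moved in part. Of 13 in the MHC class I list, 3 rose and 1 fell. NLRC5, the transactivator of this class, was at 0.203, 0.346 and 0.403 CPM in the control libraries and 0.741, 1.08 and 1.06 CPM in the GO-203 libraries (log2 fold change 1.58 ± 0.37, adjusted p = 0.00405), and ERAP1, which trims peptides, was at 76.8, 80.2 and 75.6 CPM in the control libraries and 99.6, 98.2 and 104 CPM in the GO-203 libraries (log2 fold change 0.37 ± 0.06, adjusted p = 6.36e-05). The class I light chain B2M was at 167, 155 and 156 CPM in the control libraries and 173, 162 and 177 CPM in the GO-203 libraries and did not pass.

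Many targets of the ERK cascade were lower, while more of the immediate early genes rose than fell. ERK phosphorylates ETS factors, and it induces the ETV factors as well as its own brakes, the DUSP phosphatases and Sprouty proteins. Of 20 ERK feedback genes 2 rose and 12 fell, with a median of -0.37. DUSP4, a phosphatase of ERK, was at 92.3, 90 and 93.7 CPM in the control libraries and 37.3, 35.8 and 37 CPM in the GO-203 libraries (log2 fold change -1.33 ± 0.06, adjusted p = 6.02e-13). DUSP5, its nuclear relative, was at 150.4, 143 and 152 CPM in the control libraries and 85.2, 78.7 and 87.5 CPM in the GO-203 libraries (log2 fold change -0.83 ± 0.06, adjusted p = 1.53e-09). ETV1, an ETS factor, was at 66.6, 68.5 and 70.4 CPM in the control libraries and 36.6, 35.9 and 37.7 CPM in the GO-203 libraries (log2 fold change -0.90 ± 0.06, adjusted p = 1.62e-10). These 3 lay between 0.399 and 0.564 times their control level. CCND1, the cyclin of G1, was at 97.3, 95.2 and 94 CPM in the control libraries and 54, 49.9 and 50.5 CPM in the GO-203 libraries (log2 fold change -0.89 ± 0.06, adjusted p = 2.91e-10). FOSL1, the FOS relative that depends on sustained ERK activity, was at 198, 188 and 196 CPM in the control libraries and 121, 99.8 and 114 CPM in the GO-203 libraries (log2 fold change -0.80 ± 0.07, adjusted p = 1.18e-08). EPHA4, an ephrin receptor, rose against the list, at 54.1, 52.4 and 55.5 CPM in the control libraries and 97.4, 100.1 and 99.8 CPM in the GO-203 libraries (log2 fold change 0.88 ± 0.06, adjusted p = 2.89e-10). The other riser was EGR1.

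Of 25 immediate early genes, which rise within minutes of a signal, 14 rose and 4 fell, with a median of 0.26. With the GC content offset described below 16 rose and the median was 0.43. FOS was at 11.2, 11.2 and 8.89 CPM in the control libraries and 23.1, 21.2 and 26.5 CPM in the GO-203 libraries (log2 fold change 1.18 ± 0.10, adjusted p = 1.90e-08). EGR1, a zinc finger factor, was at 118, 115 and 102 CPM in the control libraries and 185, 184 and 197 CPM in the GO-203 libraries (log2 fold change 0.75 ± 0.06, adjusted p = 1.32e-08). KLF10, induced by TGF-beta, was at 50.1, 42.4 and 45.9 CPM in the control libraries and 72.8, 66 and 77.6 CPM in the GO-203 libraries (log2 fold change 0.65 ± 0.07, adjusted p = 5.56e-07). These 3 were higher in every GO-203 library. KLF2, a factor named for its place in lung and endothelium, was the steepest fall of the list, at 6.04, 6.59 and 5.61 CPM in the control libraries and 2.02, 1.55 and 2.16 CPM in the GO-203 libraries (log2 fold change -1.66 ± 0.16, adjusted p = 1.58e-07). FOSL2 (0.50 ± 0.06) and KLF6 (0.46 ± 0.05) rose, and MCL1, a survival factor with a short-lived transcript, fell (-0.37 ± 0.05). FOS and FOSL1, members of 1 family, thus moved in opposite directions. The AP-1 site TGANTCA lay in 4.95% of windows of all genes that were higher and 4.20% of those that were lower, against 4.57% of all windows.

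**Figure D5:**
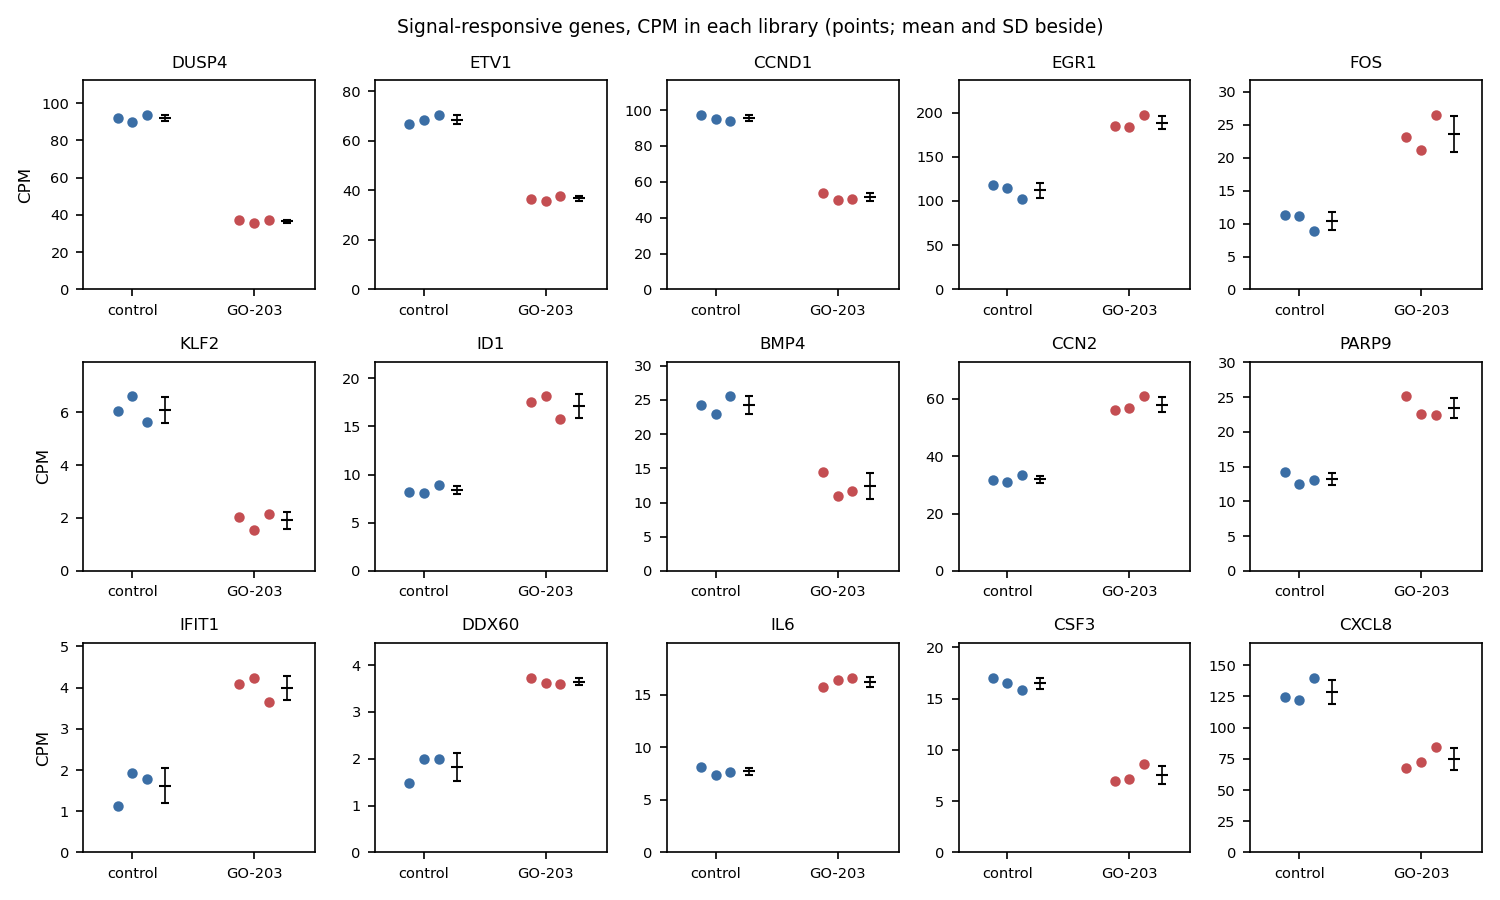
Each panel is 1 signal-responsive gene, with CPM on a y axis that starts at 0, blue points for the 3 control libraries, red points for the 3 GO-203 libraries and a black bar for the mean and SD. DUSP4, ETV1, CCND1, KLF2, BMP4, CSF3 and CXCL8 are lower with GO-203, and EGR1, FOS, ID1, CCN2, PARP9, IFIT1, DDX60 and IL6 are higher, with no overlap in any panel.

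Cytokines split. Of 26 NF-kB targets, cytokines and chemokines 4 rose and 7 fell. IL6 was at 8.07, 7.4 and 7.61 CPM in the control libraries and 15.7, 16.4 and 16.6 CPM in the GO-203 libraries (log2 fold change 1.07 ± 0.09, adjusted p = 2.49e-08), while CSF3, the granulocyte growth factor, was at 17, 16.5 and 15.9 CPM in the control libraries and 6.98, 7.13 and 8.57 CPM in the GO-203 libraries (log2 fold change -1.12 ± 0.10, adjusted p = 4.38e-08). CXCL8, a neutrophil chemokine, was at 124, 122 and 139.9 CPM in the control libraries and 67.3, 72.9 and 84.4 CPM in the GO-203 libraries (log2 fold change -0.78 ± 0.07, adjusted p = 1.01e-07), and its neighbour CXCL1 fell as well (log2 fold change -0.72 ± 0.06, adjusted p = 3.94e-08). CXCL2, of the same cluster, rose (log2 fold change 0.58 ± 0.11, adjusted p = 4.11e-04). NFKBIA, the inhibitor that NF-kB itself induces, was at 116, 110.4 and 119 CPM in the control libraries and 107, 110.4 and 108 CPM in the GO-203 libraries without a call. The list therefore showed no common direction.

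Growth factor and TGF-beta family targets split in the same way. Of 20 TGF-beta feedback and target genes 8 rose and 9 fell, and the sign of the balance changed with single libraries left out. ID1, a direct target of BMP signals, was at 8.23, 8.11 and 8.92 CPM in the control libraries and 17.6, 18.1 and 15.7 CPM in the GO-203 libraries (log2 fold change 1.02 ± 0.10, adjusted p = 6.71e-08), while BMP4, a ligand, was at 24.3, 23 and 25.5 CPM in the control libraries and 14.5, 10.9 and 11.7 CPM in the GO-203 libraries (log2 fold change -0.97 ± 0.09, adjusted p = 1.24e-07). SKIL, a feedback repressor of SMAD proteins, was at 27.6, 30.5 and 29.4 CPM in the control libraries and 45.7, 45.1 and 48.8 CPM in the GO-203 libraries (log2 fold change 0.68 ± 0.06, adjusted p = 4.84e-08). Of 22 YAP and TEAD targets 9 rose and 4 fell, with CCN2, the connective tissue growth factor, at 31.6, 31.1 and 33.3 CPM in the control libraries and 56.1, 56.7 and 60.9 CPM in the GO-203 libraries (log2 fold change 0.86 ± 0.06, adjusted p = 5.36e-10) and NT5E, the ectonucleotidase CD73, at 747, 756 and 818 CPM in the control libraries and 430.5, 378 and 430.1 CPM in the GO-203 libraries (log2 fold change -0.91 ± 0.06, adjusted p = 1.73e-10).

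Extracellular matrix genes were mostly higher where they moved. Of 36 collagen, laminin and other matrix genes 17 rose and 0 fell, with a median of 0.22. With DESeq2, and with the replicate number fitted as a block, 17 rose and 1 fell. COL3A1, a fibrillar collagen, was at 86, 80.5 and 88 CPM in the control libraries and 174, 179 and 181 CPM in the GO-203 libraries (log2 fold change 1.07 ± 0.06, adjusted p = 2.28e-11). COL1A1, of type I collagen, was at 60, 56.5 and 53.2 CPM in the control libraries and 109, 109 and 100.3 CPM in the GO-203 libraries (log2 fold change 0.91 ± 0.06, adjusted p = 6.84e-10). COL5A2, a minor fibril collagen, was at 307, 305 and 308 CPM in the control libraries and 531, 478 and 522 CPM in the GO-203 libraries (log2 fold change 0.73 ± 0.05, adjusted p = 1.53e-09). FBN1, of elastic microfibrils, was at 290.0, 303 and 256 CPM in the control libraries and 472, 492 and 506 CPM in the GO-203 libraries (log2 fold change 0.79 ± 0.06, adjusted p = 2.97e-09). In all 4 the groups were apart, and MMP1, which cuts type I and III collagen, was among the deepest falls given above. SPARC, a collagen-binding protein (0.69 ± 0.06), and COL4A1, of basement membranes (0.66 ± 0.06), rose as well, while fibronectin, FN1, was level within its error (log2 fold change 0.04 ± 0.04, adjusted p = 0.577).

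Genes of the mesenchymal and stem cell programmes moved singly. Of 21 tested, 3 rose and 5 fell. SNAI2, a repressor of epithelial genes, was at 35.3, 31.9 and 36.5 CPM in the control libraries and 51.4, 53.1 and 53 CPM in the GO-203 libraries (log2 fold change 0.60 ± 0.06, adjusted p = 1.83e-07). ITGA6, an integrin used to enrich for stem-like cells, was at 149.9, 158 and 156 CPM in the control libraries and 99.5, 94.6 and 104 CPM in the GO-203 libraries (log2 fold change -0.64 ± 0.06, adjusted p = 5.06e-08), and SOX9, a factor of luminal progenitors, was at 31.9, 28.7 and 27.5 CPM in the control libraries and 21.9, 21.3 and 25.9 CPM in the GO-203 libraries (log2 fold change -0.35 ± 0.08, adjusted p = 0.00385). CD24, a surface glycoprotein low in breast cancer stem cell gates, was at 10.6, 12 and 9.95 CPM in the control libraries and 16.6, 18.2 and 19 CPM in the GO-203 libraries (log2 fold change 0.73 ± 0.09, adjusted p = 7.38e-06), and 4 named pseudogenes share its sequence. CD44, its partner in those gates, was at 859, 887 and 902 CPM in the control libraries and 942, 872 and 971 CPM in the GO-203 libraries without a call. ZEB1, TWIST1 and BMI1 did not pass the test (adjusted p = 0.148, 0.225 and 0.132).

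Lysosome and autophagy genes leaned upward. Of 30 tested, 13 rose and 3 fell, with a median of 0.15. GABARAPL1, of the ATG8 family that coats autophagosomes, was at 8.94, 9.34 and 11.4 CPM in the control libraries and 16.1, 15.7 and 16.3 CPM in the GO-203 libraries (log2 fold change 0.69 ± 0.10, adjusted p = 2.95e-05), and LAMP2, a lysosomal membrane protein, was at 248, 261 and 268 CPM in the control libraries and 319, 309 and 328 CPM in the GO-203 libraries (log2 fold change 0.30 ± 0.05, adjusted p = 3.48e-04). NEU1, the lysosomal sialidase, rose as well (log2 fold change 0.36 ± 0.06, adjusted p = 6.38e-05), while CTSB, a cathepsin, fell (log2 fold change -0.19 ± 0.04, adjusted p = 0.00334). The riser with the lowest p among metallothionein and zinc genes was SLC30A1, the zinc exporter, at 47, 49.4 and 48.5 CPM in the control libraries and 73.8, 68.6 and 81 CPM in the GO-203 libraries (log2 fold change 0.62 ± 0.06, adjusted p = 2.54e-07), whereas MT2A, the main metallothionein, fell (log2 fold change -0.27 ± 0.04, adjusted p = 1.03e-04).

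Redox, death and stress lists held calls in both directions. Of 24 NRF2 targets 3 rose and 6 fell, and of 14 peroxide and superoxide enzymes 2 rose and 5 fell. AKR1C3, an aldo-keto reductase, was at 30.6, 27.9 and 29.6 CPM in the control libraries and 16.8, 15.3 and 14.4 CPM in the GO-203 libraries (log2 fold change -0.93 ± 0.08, adjusted p = 1.31e-08), while SLC7A11, the cystine importer that both NRF2 and ATF4 induce, was at 30.8, 31.9 and 28.9 CPM in the control libraries and 47.5, 46.8 and 55 CPM in the GO-203 libraries (log2 fold change 0.71 ± 0.07, adjusted p = 8.93e-08). Of 29 ATF4 genes 5 rose and 5 fell. Of 22 p53 targets 4 rose and 2 fell (1 without control replicate 1, GO-203 replicate 1 or GO-203 replicate 3), with TP53INP1, an autophagy-linked target, higher (log2 fold change 0.61 ± 0.08, adjusted p = 7.47e-06) and CDKN1A, the cell cycle inhibitor p21, lower (log2 fold change -0.33 ± 0.06, adjusted p = 4.75e-04). Among 13 BCL2 family genes 1 rose and 5 fell, and BCL2L1, which encodes BCL-XL, was at 128, 127 and 134 CPM in the control libraries and 88.3, 81.2 and 85 CPM in the GO-203 libraries (log2 fold change -0.61 ± 0.06, adjusted p = 1.01e-07).

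Lipid genes moved little. Of 15 fatty acid synthesis genes 4 rose and 3 fell. SCD, the stearoyl-CoA desaturase, was at 10420.0, 10050.0 and 10130.0 CPM in the control libraries and 12750.0, 11870.0 and 13150.0 CPM in the GO-203 libraries (log2 fold change 0.30 ± 0.04, adjusted p = 4.38e-06), and FADS1, another desaturase, was at 1227, 1205 and 1258 CPM in the control libraries and 1455, 1382 and 1558 CPM in the GO-203 libraries (log2 fold change 0.25 ± 0.05, adjusted p = 6.56e-04). ELOVL5, an elongase of polyunsaturated fatty acids, rose by a like amount (0.32 ± 0.05), and FASN, the fatty acid synthase, did not pass (adjusted p = 0.179). Of 25 cholesterol genes 3 rose and 5 fell. Of 230 solute carriers 37 rose and 32 fell, shares near the background in both directions. Among them SLC20A1, a phosphate importer, was at 329, 326 and 313 CPM in the control libraries and 167, 173 and 176 CPM in the GO-203 libraries (log2 fold change -0.91 ± 0.05, adjusted p = 8.01e-11), and SLC6A6, the taurine importer, was at 154, 151 and 147 CPM in the control libraries and 93.5, 87.8 and 93 CPM in the GO-203 libraries (log2 fold change -0.72 ± 0.06, adjusted p = 6.80e-09).

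Zinc finger genes, the list with the most tested members, held many small rises. A larger share of members rose in several smaller lists, the mtDNA, interferon and immediate early lists among them. Of 486 tested genes named ZNF, many of them KRAB repressors of repeated DNA, 150 rose and 27 fell, with a median of 0.16, and 97 rose without GO-203 replicate 1. ZNF621 was at 33.2, 30.1 and 30.2 CPM in the control libraries and 47.5, 47.4 and 49.3 CPM in the GO-203 libraries (log2 fold change 0.63 ± 0.06, adjusted p = 9.31e-08), and ZNF471, of the chromosome 19 clusters, was at 5.41, 6.36 and 5.52 CPM in the control libraries and 11, 10.9 and 10.3 CPM in the GO-203 libraries (log2 fold change 0.90 ± 0.11, adjusted p = 4.28e-06). ZNF488 went the other way (log2 fold change -1.42 ± 0.15, adjusted p = 4.89e-07). These genes have AT-rich transcripts (median GC content 42.8%), and GC content moved with the log2 fold change over all genes, from a median of 0.07 in the fifth with the lowest GC to -0.08 in the fifth with the highest. With an offset for GC content, chosen after seeing the data, 146 ZNF genes rose and 20 fell, with a median of 0.14. The mtDNA list (13 of 13 higher, median 0.57), the histone list (42 of 46 lower, median -0.455) and the interferon list (21 of 33 higher, median 0.42) likewise held with the offset.

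Long noncoding RNAs leaned upward as well. Of 2824 tested 225 rose (7.97%) and 62 fell (2.20%), with a median of 0.14, while of 12923 protein-coding genes 1688 rose (13.1%) and 2293 fell (17.7%), with a median of -0.01. The lncRNA genes took 1.39%, 1.52% and 1.23% of counts with control and 1.59%, 1.86% and 1.60% with GO-203 (exact permutation test, two-sided p = 0.1, the smallest possible, adjusted p = 0.14). MALAT1, at a mean of 6205 CPM with control and 8447 CPM with GO-203, made up a large part of this share and of its difference. Genes with few counts leaned the same way, the median being 0.14 in the fifth with the lowest mean count and -0.03 in the highest. Among 16 host genes of small nucleolar RNAs 7 rose and 2 fell, whereas the ribosomal proteins fell. SNHG7 was at 9.08, 9.71 and 10.1 CPM in the control libraries and 22.3, 22.1 and 19.6 CPM in the GO-203 libraries (log2 fold change 1.15 ± 0.09, adjusted p = 3.73e-09), and ZFAS1 was at 26.8, 30.5 and 26.8 CPM in the control libraries and 38.4, 42.6 and 42.1 CPM in the GO-203 libraries (log2 fold change 0.55 ± 0.07, adjusted p = 3.35e-06). GAS5, another host gene, was at 186, 184 and 186 CPM in the control libraries and 186, 209 and 188 CPM in the GO-203 libraries without a call.

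The comparison with MUC1 silencing asks which effects of the inhibitor match those of losing the transcript. Silencing changed far more genes, with 5892 higher (30.7% of 19220) and 6070 lower (31.6%), and MUC1 itself fell there (log2 fold change -2.06 ± 0.07, adjusted p = 2.97e-15). A model of all 12 libraries tested the difference of the 2 effects in 20829 genes, of which 5011 were higher with GO-203 than with silencing (24.1%) and 4342 lower (20.8%). Without the normalisation factors the split was 3716 against 5956. The 2 experiments have separate controls, and they also differ in the agent and in the hairpin construct that the silenced BT-549 line carries, which cannot be told apart from the target. The vehicle is known for the silencing control alone.

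Some lists moved the same way under both. The 13 mtDNA genes were higher with silencing too (13 of 13, median 1.21), and for 10 of them the rise was smaller with GO-203. Histone genes fell under both (40 of 47 with silencing, median -0.62), and of 47 tested for the difference 17 were higher with GO-203 and 8 lower. The 27 hypoxia targets gave 27 falls with silencing and a median of -1.91, against -0.31 with GO-203, and 26 of them were tested as higher with GO-203. PLIN2 shows the gap, with a log2 fold change of -0.68 under GO-203 and -1.83 under silencing (difference 1.15 ± 0.10, adjusted p = 2.29e-10). Glycolytic genes (20 of 21 lower, median -1.03) and ribosomal proteins (69 of 78 lower, median -0.48) fell further with silencing as well, and 15 and 48 of their members were tested as higher with GO-203. KRT5 rose under both, with a log2 fold change of 3.70 under silencing.

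Other lists parted. DNA replication genes rose with silencing (24 of 40 higher, 5 lower, median 0.25) and fell with GO-203, and 32 of 40 were tested as lower with GO-203 and 0 as higher. UHRF1 had log2 fold changes of -0.59 and 0.28 (difference -0.87 ± 0.08, adjusted p = 5.56e-10). Interferon-stimulated genes leaned down with silencing (7 higher and 16 lower of 30, median -0.43), and 21 of 34 were tested as higher with GO-203 and 3 as lower. DDX60 went from 0.99 under GO-203 to -1.12 under silencing (difference 2.11 ± 0.28, adjusted p = 6.95e-07). Endoplasmic reticulum chaperones (20 of 24 lower, median -0.75) and ATF4 genes (25 of 30 lower, median -0.96) fell with silencing. With GO-203 the chaperones gave 2 rises and 0 falls, and the ATF4 genes 5 rises and 5 falls of 29. Of these lists 20 of 24 and 24 of 30 were tested as higher with GO-203. Single genes parted too. MYH15 had a log2 fold change of -2.85 with GO-203 and 2.10 with silencing (difference -4.95 ± 0.13, adjusted p = 1.35e-19), NOS2 of -1.52 and 1.61 (difference -3.13 ± 0.09, adjusted p = 7.74e-19), and CNR1 of 1.42 and -2.29 (difference 3.70 ± 0.11, adjusted p = 7.36e-19). CCND1 fell with GO-203 (log2 fold change -0.89) and rose with silencing (0.64 ± 0.04, adjusted p = 5.06e-11; difference -1.54 ± 0.07, adjusted p = 2.58e-15).

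The remaining lists had 8 or fewer members called in either direction. Of 26 contractile actin genes 4 rose and 5 fell, of 34 tubulin and ciliary genes 4 rose and 5 fell, and the balance of both changed sign under other settings. Of 34 polycomb, BAF and PBAF subunits 2 rose and 8 fell, with PHC2, of polycomb complex 1 (log2 fold change -0.49 ± 0.06, adjusted p = 9.56e-07), and SMARCB1, the core BAF subunit (log2 fold change -0.34 ± 0.08, adjusted p = 0.00255), among the falls. Of 16 circadian clock genes 1 rose and 2 fell, of 7 nuclear long noncoding RNAs 3 rose and 0 fell, and of 115 small nuclear and nucleolar RNA genes 5 rose and 0 fell.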

How the data were processed

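The authors sequenced stranded paired-end mRNA libraries (TruSeq Stranded mRNA) with alignment by STAR to GRCh38, and the submitters' processing notes name STAR 2.7.3a, CASAVA 1.8.2 and DESeq2. Per the labels and methods, they counted reads per gene with featureCounts and deposited the raw counts, not normalised, as 1 table of 21 libraries. Libraries were grouped by their labels. Blank cells of the table were read as 0. Gene symbols came from GENCODE 44, and promoter windows from RefSeq (GRCh38.p14).

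The 3 GO-203 and 3 control libraries were fitted with edgeR 4.0.16 in R 4.3.3 (filterByExpr, TMM factors, quasi-likelihood F test, no covariates), with p-values adjusted by Benjamini-Hochberg over all 18488 genes. A gene passed with an adjusted p below 0.1, and a second count also asked for a log2 fold change above 1.5. Printed CPM values use TMM-scaled library sizes. Errors on log2 fold changes are SE from the fit. MUC1 silencing was fitted alike, and the difference of effects in 1 model of 12 libraries. Shares of counts were compared by an exact permutation test. The scripts were tested on simulated data.

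The members and gene lists were chosen with earlier results of these data known, as were the motifs for interferon, CCAAT, hypoxia and E2F elements and the GC offset, which were added after seeing the data. The genes open to naming were set by rule: MUC1, MYC, genes the study names, all members of lists of up to 15, the 6 lowest p and 2 highest counts of longer lists, the 20 largest rises and falls at a mean scaled count of at least 100 without overlap, and the 10 lowest p. Genes outside the rule are marked as picked after their values were seen. Of the 464 genes open to naming the text names a part, and the others stand in the counts only. The alternatives were DESeq2 1.42.0, other size factors and filters, all 21 libraries in 1 fit, a replicate block and leaving out each library.

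Depth ran from 38026597 to 67272436 counts per library, which fixes levels under 1 CPM only loosely. Replicate numbers were not used as pairs, since same-numbered libraries did not deviate together in every pair.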

Additional observations from a re-analysis of the deposited data

How the results depend on the processing

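The count of calls past a large fold moved more with the settings than the count of any size. The count of genes at an adjusted p below 0.1 of any size was 4452, 4533 with DESeq2, 3457 at 0.05 and 3228 to 4144 with 1 library left out. The 140 genes that also passed 1.5 on the log2 scale became 62 with DESeq2, 47 with at least 10 counts in every library, 212 with no filter beyond 1 count, 254 with all 21 libraries in 1 fit, 1041 at a linear fold of 1.5, and 144 to 196 with 1 library left out. A GC content offset gave 4641 calls, 50.8% of them higher against 46.2% without it. The difference of effects was called in 9353 genes, 53.6% of them higher with GO-203 against 38.4% with library size alone, and in 8738 to 9320 with 1 library left out.

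Fitting the replicate number as a block gave 150 and 4973 calls and 9298 differences of effect. The deviations of same-numbered libraries correlated at r of 0.322, -0.00513 and 0.204; replicates 1 and 3 correlated best with their own number and replicate 2 did not. On the second principal component (15.4% of the variance) replicate 1 was highest and replicate 3 lowest in both groups, so a pairing that the labels do not state was not settled. Calls higher minus lower changed sign in 4 lists, and for ATF4 genes, at 0 in the reported test, ran from -2 (without GO-203 replicate 3 or with the replicate block) to 4 (GC offset). For fatty acid genes this ran from -1 (without GO-203 replicate 3) to 3 with 1 library left out and was 4 with the GC offset, for TGF-beta genes from 0 to 4 with 1 library left out (4 without control replicate 1, 3 without GO-203 replicate 2, 1 without control replicate 3 or GO-203 replicate 1) and 1 with the GC offset. For contractile actin genes it ran from 0 to 4 (3 without control replicate 1, 4 without GO-203 replicate 2, 1 without GO-203 replicate 3), with 1 for library size alone, 1 for all 21 libraries and 6 with the GC offset, and for tubulins it was 2 with the GC offset; the cause was not tested. Without control replicate 1 fewer falls passed in several lists, with 3 for the mtDNA factors, 3 for the ATP synthase, 3 for complexes II and III, 4 for the citric acid cycle, 5 for polycomb, BAF and PBAF, 3 for the BCL2 family, 3 for mesenchymal and stem cell genes and 2 for cholesterol genes. The rises ran from 1 to 11 for small nuclear and nucleolar RNA genes, were 8 for lysosome and autophagy genes with all 21 libraries and 10 for ATF4 genes with the GC offset. Falls among peroxide and superoxide enzymes were 2 without control replicate 3, and falls among YAP targets 2 without control replicate 1, GO-203 replicate 1 or GO-203 replicate 2. The rises among cholesterol genes were 0 without GO-203 replicate 3, and those among tubulins 1 without GO-203 replicate 1. TFAM lost its call in 7 settings. Over the 464 genes open to naming and 15 alternatives no fold change turned its sign past the threshold, and 226 of the tests lost their call.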

Other observations

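Genes of the U1 spliceosomal RNA split by replicate number and not by treatment. RNU1-1 was at 0.75, 128 and 289 CPM in the control libraries and 0.875, 251 and 285 CPM in the GO-203 libraries, and RNU1-3 at 0.628, 83.5 and 191 CPM in the control libraries and 0.718, 164 and 184 CPM in the GO-203 libraries. Both were near 0 in replicate 1 of each group, and they are near copies of each other. TUBB, the beta-tubulin gene of the MHC region on chromosome 6, was at 214, 195 and 214 CPM in the control libraries and 23.1, 179.5 and 172 CPM in the GO-203 libraries, far lower in GO-203 replicate 1 than in the other 5 libraries; it was picked after its values were seen. These values touch no list given above as rising or falling together.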
